A study of Mus musculus with 30 samples.

Results

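The Nr4a orphan nuclear receptors Nr4a1, Nr4a2 and Nr4a3 were followed in mouse embryonic fibroblasts (MEFs) exposed to stresses that activate the p38 stress-activated protein kinase (SAPK). The members were chosen by gene name, and the array carried 1 probe for each of the 3 genes, among 33453 gene-named probes for 21689 genes. RNA from 15 groups of immortalised MEFs was hybridised on 30 Agilent whole genome arrays of 2 colours, with 2 arrays per group. Every array carried the sample in Cy5 against Cy3-labelled RNA pooled from 2 cultures of untreated wild type MEFs, so dye and sample were not separated. Each value below is a log2 ratio of sample over pool unless a difference between groups is named. The study asked which stress-induced genes depend on p38α, using the kinase inhibitor SB203580 and p38α-/- MEFs.

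Wild type MEFs were given anisomycin, a protein synthesis inhibitor, at 25 ng/ml for 45 min, the cytokine TNFα at 100 ng/ml for 45 min, or osmostress with NaCl at 100 mM for 45 min, 2 h or 8 h. The same 5 stresses were applied after SB203580, and a sixth inhibitor group received SB203580 without stress, which made 11 wild type groups. The protocol gave the inhibitor as 10 µM for 30 min before stress, whereas the sample titles gave 10 mM and 2 h. The 4 groups of p38α-/- MEFs were untreated, or given anisomycin for 45 min, TNFα for 45 min or NaCl for 2 h at the same doses. The knockout groups were compared with a wild type pool, so a ratio in p38α-/- MEFs holds both the genotype and the treatment, and how many lines of each genotype were used was not given in the sources used here. The study's methods describe the 2 arrays of a group as RNA from separate experiments.

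NR4A proteins are transcription factors whose ligand pocket is filled by bulky side chains, so that their activity follows mainly from how much of the protein a cell makes. They bind the NBRE element as monomers and related palindromes as dimers, and NR4A1 (Nur77) and NR4A2 (Nurr1), but not NR4A3 (NOR1), also pair with retinoid X receptors. In fibroblasts their genes are classic immediate early genes, switched on by growth factors and stress through CREB, SRF and MEF2 factors. The kinases MSK1 and MSK2, which lie below p38 and ERK, phosphorylate CREB.

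The promoter sequences are shown because a CRE, the element that CREB binds, is the route by which MSK kinases are known to reach these genes. All 3 members matched the RefSeq promoter table (mouse build GRCm38.p6), in which the 250 bases before each start were searched on both strands. The letters searched were TGACG (a short CRE core), TGACGTCA (the full CRE, which contains the core) and AAAGGTCA (the NBRE). Nr4a1 lies at chr15:101253902-101274795 on the plus strand, Nr4a2 at chr2:57106830-57124003 on the minus strand and Nr4a3 at chr4:48045078-48086447 on the plus strand. The table's windows for Nr4a1 and Nr4a3 lie within or overlap the span of the gene itself, so short stretches around the matches are printed for these, and the whole window for Nr4a2. Capitals mark TGACG read on either strand (CGTCA is its reverse complement).
Nr4a1 chr15:101266613-101266637 (+): CGTCAatggaaccccgcgtgCGTCA
Nr4a1 chr15:101266765-101266793 (+): ccgggccgtgtgCGTCAgtggcgcccccg
Nr4a1 chr15:101266794-101266822 (+): cccctctccatgCGTCAcggagcgcttaa
Nr4a2 chr2:57124004-57124253 (-): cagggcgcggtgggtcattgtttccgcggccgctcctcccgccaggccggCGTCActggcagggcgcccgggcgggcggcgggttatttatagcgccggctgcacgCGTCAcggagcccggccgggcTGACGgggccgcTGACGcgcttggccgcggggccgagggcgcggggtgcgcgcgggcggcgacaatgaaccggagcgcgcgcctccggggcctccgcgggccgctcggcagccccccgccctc
Nr4a3 chr4:48045074-48045096 (+): TGACGtagcgtcccatgtCGTCA
Nr4a3 chr4:48045088-48045116 (+): atgtCGTCAcatTGACGtctcgcattcca
Nr4a3 chr4:48045146-48045174 (+): ctgtggcataaaTGACGtgccgagagagc
Each of the 3 windows held 4 matches to TGACG. At least 1 match was found in 17.8% of 32851 promoter windows of the same length and at least 4 in 0.137%. In Nr4a1 the matches began 233, 213, 69 and 40 bases before the start and were all on the reverse strand. In Nr4a2 they began 200, 144, 123 and 111 bases before the start, and in Nr4a3 231, 213, 205 and 147 bases before it. No window held the full TGACGTCA, present in 1.55% of promoters, or AAAGGTCA, present in 1.34%. These are matches of letters, not measured binding sites.

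The quality of the 3 probes differed. The Nr4a1 probe (A_51_P239654, NM_010444) was bright, with Cy5 signals of 6863 to 37160, the Nr4a2 probe (A_52_P494622, NM_013613) gave 348 to 2480 and the Nr4a3 probe (A_51_P128397, NM_015743) 44.6 to 214, where the median Cy5 signal of the arrays ran from 832 to 1870. The scanner software marked the Nr4a1 spot as a non-uniform outlier on 22 of 30 arrays, and no group had both arrays unmarked. Over all spots the share marked ran from 6.78% to 44.8% per array. The fit with outlier spots left out therefore gave no Nr4a1 test, and all Nr4a1 statistics, with those of Nr4a2 at NaCl 45 min, come from the fit with such spots kept. The Nr4a3 spot was not well above background in Cy5 on 8 arrays, which included both wild type NaCl 45 min arrays. Mapk14, which encodes p38α, was at -2.24 to -0.94 on the 8 knockout arrays and at 0.03 to 1.31 on the 22 wild type arrays, without overlap. All 9 fibroblast markers were well above background on all 30 arrays, as were all 5 leukocyte, both epithelial, all 4 muscle and 3 of 4 endothelial markers present on the array, so that flag did not discriminate between cell types. By the scan date in the file headers, wild type replicates 1 shared a day, called a scan below. Wild type replicates 2 shared another with knockout replicates 1. Knockout replicates 2 were scanned on later days, with TNFα on a day of its own.

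**Figure D1:**
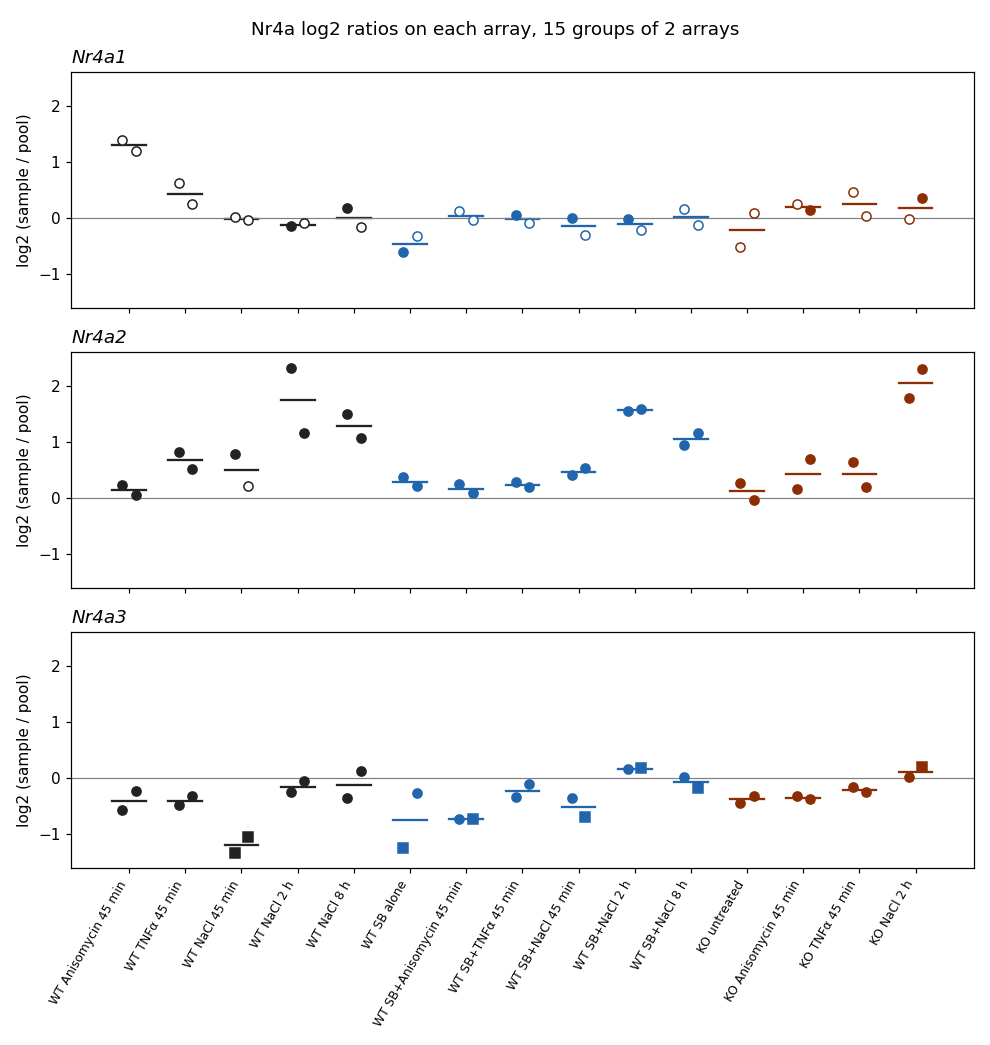
Log2 ratio of sample over pool (vertical axes) for Nr4a1, Nr4a2 and Nr4a3 on each of the 30 arrays, by group (horizontal axis), with black for wild type MEFs under stress, blue for groups with SB203580 and brown for p38α-/- MEFs; bars are the mean of 2 arrays, open symbols are spots marked as outliers and squares are spots with Cy5 not well above background. Nr4a1 was highest with anisomycin at 1.39 and 1.19, Nr4a2 in the NaCl 2 h groups, and Nr4a3 lay below 0 on both arrays of 11 groups.

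Nr4a1 was up-regulated by anisomycin in wild type MEFs, 2.45-fold over the pool at 45 min. The log2 ratios were 1.39 and 1.19 (mean 1.29 ± 0.14, SD, n = 2), and the limma estimate had a 95% interval of 0.99 to 1.59 and an adjusted p of 8.79e-06 (Benjamini-Hochberg over all genes). This placed Nr4a1 at rank 110 of 21689 genes in that group. In the fit with outlier spots kept, 24.7% of genes were called against the pool with anisomycin. Both Nr4a1 spots in this group were marked as outliers, and the effect of the marking on the ratio was not tested. These are bulk RNA ratios, in which a change in fewer or more cells and a change per cell cannot be told apart.

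The other stresses gave smaller Nr4a1 ratios. TNFα gave 0.62 and 0.25 (0.43 ± 0.26, SD, n = 2), both above 0, with an adjusted p of 0.0387 where 22.2% of genes were called. Neither value passed the test alone: without replicate 1 the adjusted p was 0.471 and without replicate 2 it was 0.0898. With NaCl the 6 values ran from -0.17 to 0.18 over 45 min, 2 h and 8 h, and lay on both sides of 0.

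The anisomycin ratio of Nr4a1 exceeded that of NaCl at 45 min by 1.30 (95% interval 0.88 to 1.73, adjusted p = 0.00403), a comparison in which 0.226% of genes were called. Without anisomycin replicate 1 that difference was 1.21 (adjusted p = 0.0954) and without NaCl replicate 2 it was 1.28 (adjusted p = 0.0611). The difference from TNFα was 0.86 (0.43 to 1.29) and was not called (adjusted p = 0.152, 0.198% of genes called), although it was with normexp (0.90, adjusted p = 0.00204) and in the series table (adjusted p = 0.0298). All groups shared the pool, which does not enter these differences directly. Ordered by mean, only the step from anisomycin down to TNFα separated neighbouring Nr4a1 groups without overlap of their arrays, 1 of 14 steps.

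With SB203580 before anisomycin the Nr4a1 ratio stayed at the level of the pool. The 2 arrays gave 0.12 and -0.04 (0.04 ± 0.11, SD), which did not overlap the 1.39 and 1.19 of anisomycin alone. The difference was -1.25 (SE 0.204, 95% interval -1.68 to -0.82, adjusted p = 0.0248), and within each replicate number, which in wild type MEFs is also the scan, it was -1.27 and -1.23. Only 0.0415% of genes were called in this comparison with outlier spots kept, and 0.0272% with them left out. The call was lost without any 1 of the 4 arrays, at -1.35 to -1.15 with adjusted p-values of 0.0634 to 0.345, the highest without anisomycin replicate 1.

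With SB203580 alone Nr4a1 was called lower than the pool, but not under every processing. Without stress the ratios were -0.61 and -0.33 (-0.47 ± 0.20, SD, n = 2), both below every other wild type value (adjusted p = 0.0145, 41.3% of genes called). More genes were called lower than higher in that group, 5992 against 2969. Nr4a1 ranked 18531 of 21689 from the top, so many genes lay lower. Without replicate 1 the value was -0.33 (adjusted p = 0.317), with normexp background correction it was -0.19 (adjusted p = 0.13) and in the deposited series table -0.25 (adjusted p = 0.12). Against SB203580 alone, the ratio with anisomycin and inhibitor was higher by 0.51 (95% interval 0.08 to 0.94), which was not called (adjusted p = 0.748). The induction with the inhibitor minus the induction without it was -0.78 (95% interval -1.30 to -0.26), which missed the threshold at an adjusted p of 0.0586 and passed it with the replicate block (adjusted p = 0.0329), with normexp (-1.11, adjusted p = 0.00281) and in the series table (-1.03, adjusted p = 0.0146). In that comparison 8.28% of genes were called, 1460 up and 334 down, and the median over all genes was 0.10. Where outlier spots were left out, 77 of 13535 genes were called. The induction without the inhibitor was the ratio over the pool, which holds dye and pool, while the other compared Cy5 samples.

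In p38α-/- MEFs anisomycin left Nr4a1 close to the pool. The ratios were 0.25 and 0.13 (0.19 ± 0.08, SD), below both wild type anisomycin arrays. The difference between genotypes under anisomycin was -1.10 (SE 0.204, 95% interval -1.53 to -0.67, adjusted p = 0.00832), where 1.55% of genes were called with outlier spots kept and 1.33% with them left out. Within the scan shared by both genotypes the difference was -0.95, and with scan as a block in the fit it was -1.16 (adjusted p = 0.00146). Without wild type anisomycin replicate 1 it was -1.004 (adjusted p = 0.122) and without knockout anisomycin replicate 2 it was -1.04 (adjusted p = 0.0857).

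The untreated p38α-/- arrays disagreed for Nr4a1, at -0.51 and 0.08, so the induction within the knockout was less certain than the level. Anisomycin over untreated knockout gave 0.41 (95% interval -0.02 to 0.83, adjusted p = 1), made of 0.76 in the earlier scan and 0.05 in the later. The induction in p38α-/- MEFs was lower than in wild type MEFs by a difference of -0.88 (95% interval -1.41 to -0.36, adjusted p = 0.0392). In this comparison 7.12% of genes were called, 1368 up and 175 down, with a median over all genes of 0.10. Where outlier spots were left out, 83 of 14755 genes were called. The wild type induction was the ratio over the pool, which holds dye and pool, while the knockout induction compared Cy5 samples. Within the scan that held both genotypes the difference of inductions was -0.43. It stayed called only without untreated knockout replicate 1 (-1.18), and was lost without any other of the 6 arrays, down to -0.59 without untreated knockout replicate 2 (adjusted p = 0.146).

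No inhibitor or knockout difference of Nr4a1 was called under the other stresses. With TNFα the inhibitor difference was -0.45 (95% interval -0.88 to -0.02, adjusted p = 1) and the knockout difference -0.18 (-0.61 to 0.25). With NaCl at 2 h they were 0.00 (-0.42 to 0.43) and 0.29 (-0.14 to 0.72). Differences of the size seen with anisomycin lay outside these 4 intervals, while smaller ones did not.

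**Figure D2:**
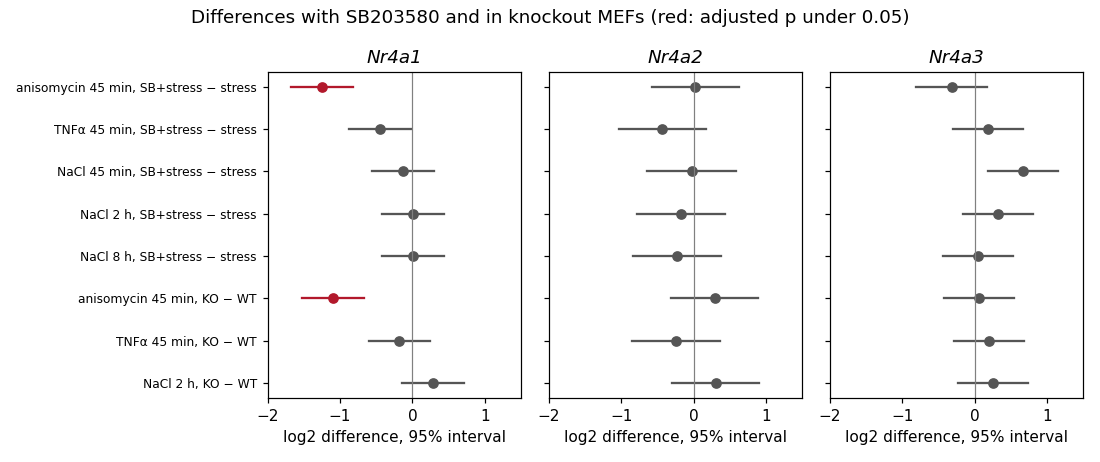
Log2 differences with 95% intervals for each member, SB203580 plus stress minus stress alone and p38α-/- minus wild type under the same stress (horizontal axis), with red for an adjusted p under 0.05; Nr4a1 and the Nr4a2 value at NaCl 45 min are from the fit with outlier spots kept, and the Nr4a3 point at NaCl 45 min rests on a stress level that is only a bound. Nr4a1 under anisomycin was the only called difference in either set, at -1.25 with the inhibitor and -1.10 in the knockout.

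Nr4a2 was up-regulated by osmostress, with the highest ratios at 2 h. At 45 min of NaCl the values were 0.78 and 0.21 (0.49 ± 0.40, SD, the lower spot marked as an outlier), which was not called (adjusted p = 0.104). At 2 h they were 2.32 and 1.16 (1.74 ± 0.82, SD, n = 2), a mean of 3.34-fold (adjusted p = 3.89e-05). At 8 h they were 1.49 and 1.07 (1.28 ± 0.30, SD), 2.43-fold (adjusted p = 0.000194). Nr4a2 ranked 37 of 18504 genes at 2 h and 213 of 16378 at 8 h. In the fit with outlier spots kept, which gave the 45 min test, 4102 of 21675 genes were called against the pool at 45 min. In the fit with them left out the shares were 9.93% at 2 h and 22.2% at 8 h.

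The time course could not be resolved further. The 2 h arrays lay above the 45 min arrays without overlap, but the difference of 1.25 (95% interval 0.63 to 1.86) was not called (adjusted p = 0.126), though it was with normexp (1.19, adjusted p = 0.00933). The difference between 8 h and 2 h was -0.46 (95% interval -1.06 to 0.14, adjusted p = 0.439), and the arrays overlapped. Without the lower 2 h array, replicate 2, these differences were 1.83 (adjusted p = 0.00568) and -1.04 (adjusted p = 0.0293). The spread between arrays at 2 h (SD 0.82) was the largest of the 15 groups for Nr4a2.

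No difference with SB203580 was called for Nr4a2 under osmostress. With the inhibitor the 2 h arrays gave 1.54 and 1.58 (1.56 ± 0.03, SD, adjusted p = 9.66e-05, 16.9% of genes called), inside the range without it. At 45 min they gave 0.40 and 0.53, which was not called. At 8 h they gave 0.94 and 1.16 (1.05 ± 0.15, SD, adjusted p = 0.00136, 21.1% called), overlapping the uninhibited arrays. The inhibitor differences were -0.18 at 2 h (95% interval -0.78 to 0.43) and -0.23 at 8 h (-0.83 to 0.37), both with an adjusted p of 1. Within replicates 1 and 2 the inhibitor differences had opposite signs. They were -0.78 and 0.43 at 2 h, -0.55 and 0.09 at 8 h, and -0.37 and 0.32 at 45 min. At 2 h 0% of genes were called for the inhibitor by limma, with 527 of 16715 at an unadjusted p under 0.05. Against SB203580 alone, at 0.36 and 0.21 for Nr4a2, NaCl raised the ratio by 1.28 at 2 h (95% interval 0.68 to 1.88, adjusted p = 0.019, 2.95% of genes called), and the 8 h difference of 0.76 was not called (adjusted p = 0.124). The call at 2 h was lost without any 1 of its 4 arrays, at 1.20 to 1.36 with adjusted p-values of 0.0637 to 0.117.

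Nr4a2 was up-regulated in p38α-/- MEFs as well at 2 h of NaCl. The ratios were 1.79 and 2.30 (2.04 ± 0.36, SD, n = 2), 4.12-fold (adjusted p = 4.27e-06, rank 43 of 19223, 17.9% of genes called), and fell within the range of the wild type arrays. The knockout minus wild type difference was 0.30 (95% interval -0.30 to 0.91, adjusted p = 0.735, 0.720% of genes called), and 0.63 within the shared scan. Over untreated p38α-/- MEFs, at 0.26 and -0.03, the induction was 1.93 (95% interval 1.32 to 2.53, adjusted p = 0.00225, 1.14% of genes called), and was seen in both scans at 1.53 and 2.33. Without knockout NaCl 2 h replicate 2 it was 1.67 (adjusted p = 0.0745). The inductions in the 2 genotypes differed by 0.19 (-0.55 to 0.93, adjusted p = 0.845).

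**Figure D3:**
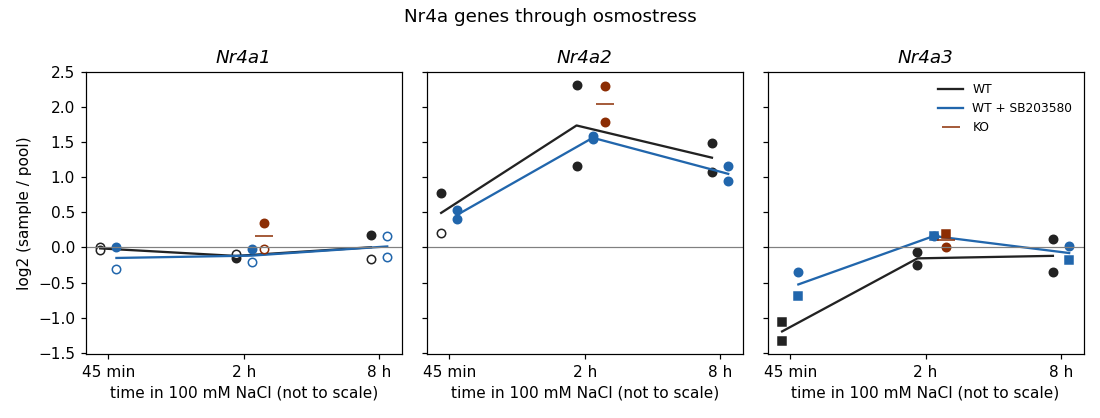
Log2 ratio of sample over pool (vertical axis) for each member at 45 min, 2 h and 8 h of NaCl (horizontal axis, not to scale) in wild type MEFs, wild type MEFs with SB203580 and, at 2 h, p38α-/- MEFs; points are arrays (open for spots marked as outliers, squares for Cy5 not well above background) and lines join the means. Nr4a2 reached means of 1.74, 1.56 and 2.04 at 2 h in the 3 settings, while the Nr4a1 means without inhibitor stayed between -0.12 and 0.00 in wild type MEFs.

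At the matched time of 45 min the Nr4a2 ratio with TNFα was close to that with NaCl, a difference of 0.17 (95% interval -0.44 to 0.79, outlier spots kept). TNFα gave 0.82 and 0.51 (0.67 ± 0.22, SD, adjusted p = 0.0422, 10.8% of genes called), and neither array passed alone (adjusted p of 0.183 without replicate 2 and 0.397 without replicate 1). Anisomycin, the strongest stimulus for Nr4a1, gave 0.23 and 0.05 for Nr4a2, which was not called where 11.9% of genes were. With SB203580 the TNFα arrays gave 0.27 and 0.20, below both arrays without it, and the difference of -0.43 (95% interval -1.03 to 0.17) was not called. In p38α-/- MEFs TNFα gave 0.65 and 0.20 and anisomycin 0.16 and 0.70, and neither group was called (7.56% and 12.3% of genes called). Both arrays lay above 0 in 14 of 15 groups for Nr4a2.

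Nr4a3 was the dimmest member and was called lower than the pool in 4 groups and higher in none. In those 4 groups 9.80% to 26.5% of all genes were called. At 45 min of NaCl the ratios were -1.33 and -1.06 (-1.20 ± 0.19, SD, n = 2, adjusted p = 0.000329, 9.80% of genes called). Both samples were not well above background there, so the level is a bound. The mean was 1.96-fold lower than the pool when normalized Cy5 was set no lower than the array's dimmest spot well above background. Nr4a3 spots with Cy5 signals of 120 (SB203580 with anisomycin) and 155 (knockout with NaCl) were also marked as not well above background. So 1.96-fold is not a firm lower limit. At 2 h the ratios were -0.25 and -0.06 and at 8 h -0.36 and 0.12, and with anisomycin they were -0.58 and -0.24 and with TNFα -0.49 and -0.32, none of them called. No difference from the 45 min level is given, since that level is a bound.

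The inhibitor groups held the other called Nr4a3 values. SB203580 alone gave -1.26 and -0.26 (-0.76 ± 0.70, SD, adjusted p = 0.00302, 26.5% of genes called), and without replicate 1 the value was -0.26 (adjusted p = 0.451). SB203580 with anisomycin gave -0.73 on both arrays (adjusted p = 0.00799, 11.5% called), lost without either array (adjusted p of 0.119 and 0.121). SB203580 with NaCl for 45 min gave -0.36 and -0.70 (adjusted p = 0.0342, 16.7% called), also lost without either array at -0.70 and -0.36 (adjusted p of 0.0727 and 0.431), and with normexp at -0.087. In each of these groups 1 of the 2 spots was not well above background. With TNFα and SB203580 the values were -0.34 and -0.11, not called where 9.43% of genes were.

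Against SB203580 alone, the Nr4a3 ratio with SB203580 and NaCl at 2 h was higher by 0.92 (95% interval 0.44 to 1.41, adjusted p = 0.0347, 2.95% of genes called). In each of these groups 1 of the 2 spots was not well above background in Cy5, so the size of the difference is not firm. That difference rested on the inhibitor array at -1.26: without it the value was 0.42 (adjusted p = 0.536), and it was also not called without either NaCl array (0.93 and 0.92, adjusted p of 0.176 and 0.169) or with normexp (0.27). The induction of Nr4a3 by NaCl at 2 h with the inhibitor minus that without it was 1.08 (adjusted p = 0.0592), and passed the threshold with the replicate block (adjusted p = 0.0263). In this comparison 235 of 14302 genes were called. The value also rested on the inhibitor array at -1.26, and was 0.58 without it. The induction without the inhibitor was the ratio over the pool, which holds dye and pool. In p38α-/- MEFs the 8 values ran from -0.44 to 0.19, none of the 4 groups was called, and the untreated group, where 14.9% of genes were called, stood at -0.44 and -0.33. The knockout differences lay between 0.05 and 0.26, with no call.

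The 3 members did not share a profile across the arrays. Over the 30 arrays, which share the pool and the scans, Pearson's r of the log2 ratio was -0.12 for Nr4a1 with Nr4a2, 0.096 for Nr4a1 with Nr4a3 and 0.49 for Nr4a2 with Nr4a3. These r values used all spots, with outlier spots kept and with the 8 Nr4a3 spots not well above background in Cy5. Also with outlier spots kept, the genes most like Nr4a1 over 30 arrays were Olfr485 (r = 0.83), Atf3 (0.83), 6330419J24Rik (0.82), Oog3 (0.78) and Chka (0.77). Atf3 encodes a stress-induced bZIP transcription factor. For Nr4a2 and Nr4a3 outlier spots were left out, so fewer genes were compared (17914 and 17975, against 21674 for Nr4a1). The genes most like Nr4a2 were Twist1 (r = 0.93 over 29 arrays), Fin14 (0.90 over 24), 1700023B23Rik (0.89 over 22), 5830435K17Rik (0.87 over 27) and Lgals6 (0.87 over 29). Twist1 encodes a bHLH factor of mesenchymal cells. Those most like Nr4a3 were Disp2 (r = 0.87 over 25 arrays), 3110079O15Rik (0.80 over 22), Krt1-17 (0.79 over 20), Ntrk3 (0.78 over 23) and Atrn (0.78 over 30).

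Other immediate early genes driven by CREB and SRF were measured beside the family, with outlier spots left out. Of 13 such genes on the array, 5 of 7 tested were up-regulated by anisomycin and none fell (11.9% of all genes called, median 1.29 against 0.00 for all genes), among them Btg2, an antiproliferative gene, at 4.80, the transcription factor Egr1 at 4.71 and Ier2 at 1.29. TNFα up-regulated 5 of 10 (10.8% of all genes called, median 0.84), with Fos, an AP-1 subunit, at 3.23, Egr1 at 2.89 and Btg2 at 2.47. NaCl up-regulated 2 of 8 at 45 min (Fos 3.11 and Ier2 1.68, 9.80% of all genes called) and 5 of 13 at 2 h (9.93% of all genes called, median 0.67), with Fos at 3.96 and Dusp1, a MAP kinase phosphatase, at 3.42. At 8 h of NaCl only Dusp1 was still up (2.84) and Egr1 was down (-1.27) of 12 tested, where 22.2% of all genes were called. SB203580 without stress also had 4 of 9 tested called higher (26.5% of all genes called), with Fos at 2.32, Egr1 at 0.92 and Dusp1 at 0.86. Nr4a2 at 8 h was thus measured at 1.28 beside a list median of -0.06.

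Under anisomycin the list medians of the inhibitor and knockout differences were below 0, like the differences of Nr4a1. Only 7 of the 13 list genes on the array could be tested there. The list was set with earlier results of these data known. The study had already reported Btg2 as induced mostly by anisomycin and reduced in both settings. The likeness is thus a description and gives no separate support. With SB203580, 2 of 7 tested were lower, Btg2 by a difference of -3.26 (adjusted p = 0.000943) and Egr1 by -2.19 (adjusted p = 0.0454), with a list median of -0.77 against 0.01 for all genes and 0.0272% of all genes called. In p38α-/- MEFs 3 of 7 were lower, Btg2 at -2.54, Egr1 at -1.50 and Egr3 at -1.39, with a list median of -0.73 against 0.03 and 1.33% of all genes called. At 2 h of NaCl no member of the list was called for the inhibitor (12 tested) or the knockout (13 tested), where 0% and 0.720% of all genes were called.

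**Figure D4:**
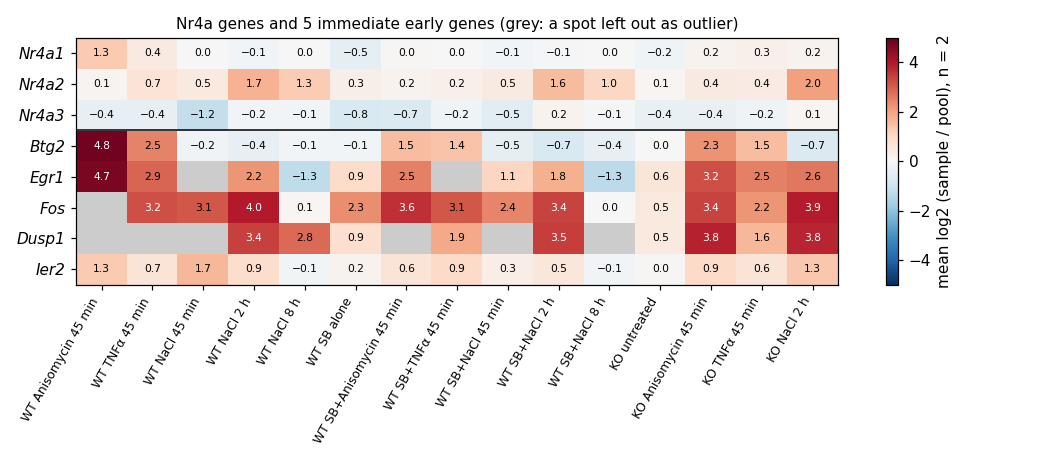
Heat map of the mean log2 ratio of sample over pool for the 3 members and 5 immediate early genes (rows) in the 15 groups (columns), with outlier spots kept for the members and grey for a group in which such a spot was left out. Btg2 and Egr1 were highest with anisomycin in wild type MEFs (4.80 and 4.71), as was Nr4a1 at 1.29, while Nr4a2 was highest in p38α-/- MEFs with NaCl at 2.04.

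Genes that act above or beside the NR4A receptors were called in shares mostly near those of all genes under stress. Of 14 regulators on the array (CREB, MEF2 and SRF factors with the MSK and MK kinases), 1 of 11 tested was called with anisomycin (11.9% of all genes), Mapkapk2, the p38 substrate kinase MK2, at -0.39, and it was called at NaCl 45 min as well, at -0.52. With TNFα 1 of 10 was called (10.8% of all genes), and with NaCl 2 of 6 at 45 min (9.80%), 1 of 12 at 2 h (9.93%) and 3 of 12 at 8 h (22.2%). More were called with SB203580 and no stress, 2 higher and 5 lower of 11 (26.5% of all genes), with Mef2d at -0.81 and Mapkapk2 at -0.45, and in p38α-/- MEFs with NaCl at 2 h, 3 higher and 2 lower of 13 (17.9%). Rps6ka5, which encodes MSK1, was at 0.47, 0.45 and 0.57 at 45 min, 2 h and 8 h of NaCl, each called. With TNFα Mef2d was at -1.02, and at 8 h of NaCl Mef2c was at -0.80 and Rps6ka4, which encodes MSK2, at -0.59. No regulator was called for an inhibitor or knockout difference under the same stress, comparisons in which at most 206 of 15460 genes were called. Of the 3 retinoid X receptors, Rxrg was called at -0.50 with anisomycin and -0.47 at NaCl 45 min, and Rxrb at -0.28 at NaCl 2 h, and with SB203580 alone they were at -0.44 and -0.56.

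Among 46 other nuclear receptors, members of other families were called as well. Under anisomycin 2 were higher and 4 lower of 36 tested (11.9% of all genes called). TNFα had 2 higher and 2 lower of 32 (10.8%). NaCl had 2 higher and 3 lower of 28 at 45 min (9.80%), and 3 and 2 of 42 at 2 h (9.93%). At 8 h of NaCl 4 were higher and 1 lower of 30 (22.2%). SB203580 without stress had 5 higher and 8 lower of 33 (26.5%). Nr2f1 (COUP-TFI) was called in all 5 wild type stress groups, from 0.74 with TNFα to 1.70 at 8 h of NaCl, and its close relative Nr2f2 was at 0.98 at 8 h. Nr3c1, the glucocorticoid receptor, was called at -1.01 at 45 min of NaCl. All 3 were also called against the pool with SB203580 and no stress, Nr2f1 at 0.95, Nr2f2 at 0.58 and Nr3c1 at -1.15. Nr2f1 was lower in p38α-/- than in wild type MEFs in all 3 stresses, at -1.97 with anisomycin, -2.17 with TNFα and -2.08 with NaCl at 2 h, and stood at -0.98 in untreated p38α-/- MEFs. In these genotype differences 2 of 34, 2 of 27 and 2 of 39 listed receptors were called, all lower. Over all genes 206 of 15460, 59 of 14251 and 127 of 17631 were called. No nuclear receptor of the list was called for an inhibitor difference under the same stress, where at most 32 of 15068 genes were called.

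Genes reported elsewhere as NR4A targets showed no shared direction. Of 19 on the array, 3 rose and 2 fell at 2 h of NaCl (18 tested, 9.93% of all genes called), with the neurotrophin Bdnf at 1.66, the receptor kinase Ret at 1.23, the muscle phosphorylase Pygm at 0.76 and the gluconeogenic enzyme Fbp1 at -1.07. At 8 h 2 rose and 2 fell of 14 (22.2% of all genes called), with Spp1 (osteopontin) at 3.58 and Bdnf at 1.04. Bdnf, Ret and Pygm were also called in p38α-/- MEFs at 2 h, at 2.06, 1.12 and 0.69. With anisomycin 1 rose and 3 fell of 16 (11.9% of all genes called), and with TNFα 1 rose and 4 fell of 16 (10.8%). No target was called for an inhibitor or knockout difference under the same stress, again where at most 206 of 15460 genes were called, and the list medians of these differences ran from -0.09 to 0.15.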

How the data were processed

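Total RNA from 15 groups of MEFs was amplified, labelled and hybridised by the authors to 30 arrays of 2 colours, and the scans were read with Agilent Feature Extraction (9.1 per the labels, 8.1.1.1 per the file headers). The deposited log10 ratio of Cy5 over Cy3, background-subtracted and dye-normalized per the file headers, was converted to log2, with the deposited signal intensity of each channel used for brightness and bounds. The authors' series table of log2 ratios served as an alternative (r of 0.785 to 0.952 with the scanner values). Spots of control probes were left out, replicate spots were averaged per probe, probes were averaged per gene, and 15 group means were fitted with limma 3.58.1 in R 4.3.3. Group means were tested against a ratio of 0, which leaves out the spread of the pool, and contrasts between groups were taken from the same fit, with Benjamini-Hochberg adjustment over all genes and a threshold of 0.05. No untreated wild type sample was hybridised in Cy5. In every difference of inductions, the wild type induction without inhibitor was therefore the ratio over the pool. The fit as designed left out spots marked as outliers. As this left no Nr4a1 test, an alternative fit with those spots kept is reported for Nr4a1 and for Nr4a2 at NaCl 45 min.

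The members, gene lists and tests were chosen with earlier results of these data known. Named genes were the members, up to 5 genes per list with the largest mean log2 ratio among those called in a wild type stress group, other list genes called and named after their values were seen (Egr3), and the 5 genes most correlated with each member over at least 20 arrays. Same-numbered arrays deviated together within a genotype (all 55 wild type pairs of groups correlated above 0.1, from 0.13 to 0.65, as did all 6 knockout pairs, from 0.15 to 0.45) but not across genotypes (6 of 44), and the wild type number coincides with the scan. Alternatives were normexp background correction (offset 50), the deposited series table, outlier spots kept, dim spots left out, the brightest probe per gene, wild type arrays alone, the replicate block and each array left out in turn. Scan as a block and values within a scan were added after seeing the data. The fit was tested on simulated data with errors independent between arrays. That test therefore leaves out the shared deviations of same-numbered arrays. With 2 arrays in a group, the precision is limited by their number. No deposited columns of other samples were present, and no comparison columns of the authors were used. A gene that the naming rule selected from the nuclear receptor list is not reported here.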

Additional observations from a re-analysis of the deposited data

Results flagged for a closer look

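The anisomycin induction of Nr4a1 in p38α-/- MEFs minus that in wild type MEFs was -0.88 (95% interval -1.41 to -0.36), and the interaction term in limma passed the threshold (adjusted p = 0.0392, outlier spots kept). The induction was 1.29 in wild type MEFs and 0.41 in p38α-/- MEFs, each with 2 arrays per group. These are unlike measures. The wild type value is the ratio over the pool and holds dye and pool, while the knockout value compares stressed with untreated Cy5 samples. Of the 4 wild type and knockout anisomycin spots, 3 were marked as outliers, as were both untreated knockout spots. The part of the marking in the difference was not tested.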

How the results depend on the processing

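Of 20 called Nr4a results, 130 of 136 values under other processing stayed called in the same direction, and none of the results reversed. That count includes alternatives that could not change a member's own ratio. Each member had 1 probe, so the brightest probe per gene was the same probe. No Nr4a1 or Nr4a2 spot was dim, and no Nr4a3 spot was marked as an outlier. In such cases only the other genes in the fit could alter a call. Nr4a1 with SB203580 alone was no longer called with normexp (-0.19) or in the deposited series table (-0.25). Nr4a3 with SB203580 and NaCl at 45 min was not called with normexp (-0.087) or when wild type arrays were fitted alone (-0.53), nor was Nr4a3 with SB203580 and NaCl at 2 h minus SB203580 alone (0.27 and 0.92). The count of called SB203580 differences was 3 in the reported tests, 6 with outlier spots kept throughout, 6 with the brightest probe per gene and 7 with the replicate block. The count between stresses and times was 1, against 3 with normexp and 2 in the series table. The replicate block, which for wild type arrays is also the scan, left the other counts at 13 against the pool and 3 for the knockout. The cause of these changes was not tested.

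Leaving out each array in turn kept 24 of 56 called values. The counts ran from 11 to 13 against the pool, 1 to 9 with SB203580, 1 to 3 in the knockout and 0 to 3 between stresses and times. For Nr4a1 the values ran from 1.19 to 1.39 with anisomycin, 0.25 to 0.62 with TNFα, -0.61 to -0.33 with SB203580 alone, -1.35 to -1.15 for the inhibitor and -1.20 to -1.004 for the knockout under anisomycin, -1.18 to -0.59 for the difference of inductions and 1.21 to 1.40 for anisomycin minus NaCl. For Nr4a2 they ran from 0.51 to 0.82 with TNFα, 1.16 to 2.32 and 1.07 to 1.49 with NaCl at 2 h and 8 h, 1.54 to 1.58 and 0.94 to 1.16 with the inhibitor, 1.79 to 2.30 in the knockout, and 1.20 to 1.36 and 1.67 to 2.18 over SB203580 alone and over untreated knockout. For Nr4a3 they ran from -1.33 to -1.06 with NaCl at 45 min, -1.26 to -0.26 with SB203580 alone, -0.73 to -0.73 with anisomycin added, -0.70 to -0.36 with NaCl at 45 min added, and 0.42 to 1.42 for NaCl at 2 h over SB203580 alone. Of the 20 called results, those of Nr4a1 could not be computed with outlier spots left out, and those of Nr4a3 that rest on dim spots could not with such spots left out.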
